A study of Mus musculus with 8 samples.

Results

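The genes described here are Il33 and 7 further members of the interleukin-1 (IL-1) family and its receptors, namely Il1rl1, Il1rap, Il1r1, Il1a, Il1b, Il1rn and Il18. All accessible regions that overlapped the body of each of the 8 genes or the 50 kb upstream of it were taken, in the mouse genome build mm10 (GRCm38). This gave 42 regions of 69399 in the whole series, 8 of them in the window of Il33. The regions came from ATAC-seq, in which the transposase Tn5 cuts open chromatin, of cultured cutaneous squamous cell carcinoma (SCC) cells that differed in the status of focal adhesion kinase (FAK, encoded by Ptk2). There were 8 libraries, 2 of each of 4 cell lines.

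All the lines went back to SCCs that had been raised by DMBA/TPA carcinogenesis in the skin of K14CreER FAKflox/flox FVB mice and carry Ha-Ras as driver. In culture, 4-hydroxytamoxifen was used to delete FAK, so the floxed alleles are deleted in every line, FAK-WT included. The FAK-/- cells are a clone without FAK, and the FAK-WT, FAK-nls and FAK-kd cells are that clone after retroviral transduction and hygromycin selection. FAK-WT cells re-express wild-type FAK, FAK-nls cells a mutant impaired in nuclear localisation, and FAK-kd cells a kinase-deficient mutant. The model is thus 1 clone. The replicates of a line are described as biological, and whether they came from separate transductions is not stated.

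Cytokines of the IL-1 family are made by barrier epithelia and by myeloid cells and are signals of tissue damage and inflammation. IL-33, the product of Il33, is stored in the nucleus, where it binds chromatin, and acts as an alarmin once released from the cell. It binds the receptor ST2, encoded by Il1rl1, which pairs with the accessory chain encoded by Il1rap. The same accessory chain serves the IL-1 receptor encoded by Il1r1, whose ligands are the products of Il1a and Il1b and whose antagonist is the product of Il1rn. IL-18 uses a receptor pair of its own. Keratinocytes are known to make IL-1 alpha, IL-18, the receptor antagonist and, under stress, IL-33.

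The sequences on which the results turn come first. They were read from the RefSeq genome GRCm38.p6, on the plus strand from 5′ to 3′, which is the C57BL/6J reference and not the FVB genome of these cells. Capitals mark matches to 3 of the motifs searched on both strands: AP-1 (TGANTCA with C or G at N), the cAMP response element or CRE (TGACGTCA) and C/EBP (TTGCNNAA). AP-1 and CRE matches read alike on both strands and were counted once. The intronic Il33 region is shown because it had peaks in both FAK-WT replicates and in FAK-/- replicate 1 but in no FAK-nls or FAK-kd replicate, and it holds a CRE match at bases 131 to 138 and an AP-1 match at bases 269 to 275. Of the 3 Il33 regions called in all 8 libraries, those 7.49 kb and 37.4 kb upstream of the gene start are shown because their log2 fold enrichment, centred on the library medians, differed most between FAK-WT and FAK-/- cells, and each holds 2 AP-1 matches, adjacent to each other in the more distant region. The 250 bases before the inner Il33 start lead into the region at which only low peaks were called, and hold a C/EBP match. The Il1rl1 regions are the one with the best-ranked peak of all member regions and the one that came closest to a call against FAK-nls. Each holds an AP-1 match.
Il33 intronic region, 17.5 kb from the gene start, chr19:29942388-29942687: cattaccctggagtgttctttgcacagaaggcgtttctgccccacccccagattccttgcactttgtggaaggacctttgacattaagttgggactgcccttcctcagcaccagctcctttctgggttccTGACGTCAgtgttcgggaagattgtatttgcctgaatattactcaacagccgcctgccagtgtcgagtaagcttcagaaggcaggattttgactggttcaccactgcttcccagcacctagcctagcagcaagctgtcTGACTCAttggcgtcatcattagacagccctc
Il33 upstream region, 7.49 kb, chr19:29917525-29917724: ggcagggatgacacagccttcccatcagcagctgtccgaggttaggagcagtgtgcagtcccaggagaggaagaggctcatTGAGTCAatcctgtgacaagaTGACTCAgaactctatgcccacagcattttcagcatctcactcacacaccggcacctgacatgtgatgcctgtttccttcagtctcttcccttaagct
Il33 upstream region, 37.4 kb, chr19:29887517-29887716: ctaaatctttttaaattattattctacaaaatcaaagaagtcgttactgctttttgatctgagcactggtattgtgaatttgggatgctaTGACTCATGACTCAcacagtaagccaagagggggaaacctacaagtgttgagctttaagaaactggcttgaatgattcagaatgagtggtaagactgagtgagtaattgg
Il33 inner promoter, chr19:29945540-29945789: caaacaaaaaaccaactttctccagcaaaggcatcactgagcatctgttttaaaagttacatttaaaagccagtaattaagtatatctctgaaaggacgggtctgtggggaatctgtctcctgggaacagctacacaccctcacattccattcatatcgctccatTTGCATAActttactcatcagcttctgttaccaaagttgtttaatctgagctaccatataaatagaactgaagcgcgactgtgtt
Il1rl1 intronic region, 15.5 kb from the gene start, chr1:40445033-40445272: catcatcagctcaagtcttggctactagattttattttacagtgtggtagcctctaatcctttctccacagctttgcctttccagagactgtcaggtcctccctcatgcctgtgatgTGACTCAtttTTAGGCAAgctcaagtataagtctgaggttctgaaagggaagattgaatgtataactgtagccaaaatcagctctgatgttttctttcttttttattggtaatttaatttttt
Il1rl1 upstream region, 28.5 kb, chr1:40401044-40401283: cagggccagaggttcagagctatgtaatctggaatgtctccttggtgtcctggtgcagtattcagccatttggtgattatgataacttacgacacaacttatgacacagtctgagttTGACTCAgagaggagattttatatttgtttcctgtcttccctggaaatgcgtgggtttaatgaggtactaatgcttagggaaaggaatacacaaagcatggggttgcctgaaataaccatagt

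The authors deposited a list of peaks for each library, each with its pileup, fold enrichment over background, and −log10 of p and q. The lists held 24402 to 53728 peaks, fewest in FAK-nls (24402 and 24974) and most in FAK-WT replicate 1, and read depth is not given in them. The study reports depth and duplication separately. The share of duplicate reads was highest in the FAK-nls libraries, and mapped reads were fewest in the FAK-kd libraries. A region is a merged stretch of overlapping peaks, and a region without a peak in a library has no value there rather than a value of 0. Of 10 keratinocyte or squamous markers, Itga6 had a promoter peak in all 8 libraries, Itgb4 in 3, Krt14 and Col17a1 in 1, and the defining Krt5 and Trp63, like Krt15, Sfn, Dsg3 and Epcam, in none. Of the simple epithelial or mesenchymal genes, Vim had a promoter peak in all 8, Krt8 in 5 and Krt18 in 1, and the fibroblast genes Pdgfra and Col1a1 had one in all 8. Of the leukocyte genes reported here, Cd68 had a promoter peak in 2 libraries, while Ptprc, Cd3e and Adgre1 had none. The endothelial gene Cdh5 had one in 2 libraries (FAK-WT), and Pecam1 and the melanocyte genes Dct, Tyr and Mlana had none. The Ptk2 promoter was called in 8 libraries, which does not check the deletion, since a start that lies outside the deleted part stays in place. Open chromatin is not expression, and none of the values below measures RNA.

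The member regions were called more often than regions at large, and in nearly the same order of libraries. They were called 35 and 30 times in the FAK-WT libraries (83.3% and 71.4% of 42 regions), 33 and 28 times in FAK-/- (78.6% and 66.7%), 21 and 20 times in FAK-nls (50% and 47.6%) and 27 and 33 times in FAK-kd (64.3% and 78.6%). Over all regions the shares were 77.0% and 55.9%, 61.7% and 50.4%, 34.9% and 35.7%, and 47.1% and 65.8%. FAK-nls was thus lowest and FAK-WT replicate 1 highest both for the IL-1 family and for the genome. Of the 42 regions, 17 (40.5%) were called in all 8 libraries, against 25.8% of all regions, and 6 (14.3%) in a single library, against 28.6%. By position, 20 lay between genes, 17 in introns, 4 in UTR exons and 1 in an exon of a noncoding transcript. The heat map of fold enrichment by region and library shows the dense rows of Il18 beside the sparse rows of Il1b and Il1rn.

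**Figure D1:**
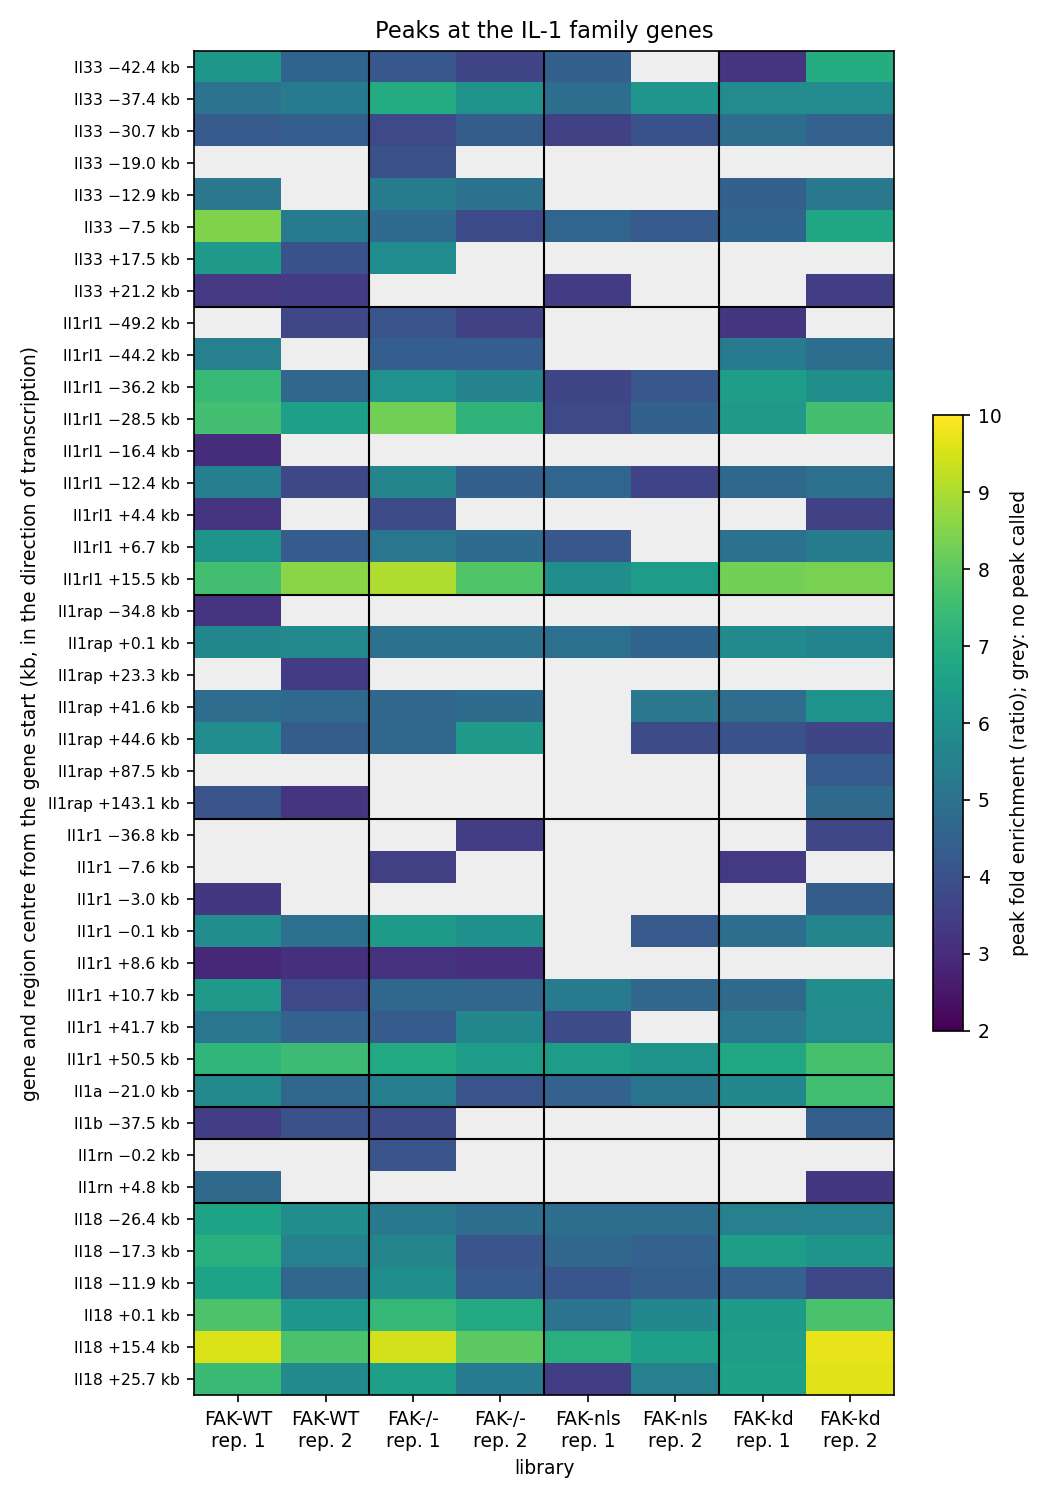
Each row is 1 of the 42 regions, named by gene and by the distance of its centre from the gene start in kb, and each column is 1 of the 8 libraries; colour gives the fold enrichment of the highest peak (a ratio) and grey no peak. All 6 Il18 regions are filled in all 8 libraries, and the FAK-nls columns hold the fewest filled cells (21 and 20).

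Il33 (chr19:29925114-29960718, plus strand) had 8 regions, 6 upstream of the gene and 2 inside it. The FAK-WT libraries called 7 and 6 of them, FAK-/- 7 and 5, FAK-nls 5 and 3, and FAK-kd 5 and 6, where the median protein-coding gene window held 1 to 3 called regions. No library had a peak over the outer start at 29925114. In the upstream part, the regions 37.4 kb, 30.7 kb and 7.49 kb from the start were called in every library, that at 42.4 kb in all but FAK-nls replicate 2, and that at 19.0 kb in FAK-/- replicate 1 alone. The upstream regions therefore did not separate FAK-WT from the other lines by their calls.

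The intronic Il33 region (chr19:29942388-29942780), printed above with its CRE and AP-1 matches, lay 17.5 kb inside the gene and 3.21 kb before the inner start. It had a fold enrichment of 6.32 in FAK-WT replicate 1, 4.01 in FAK-WT replicate 2 and 5.88 in FAK-/- replicate 1, and no peak in FAK-/- replicate 2 or in any FAK-nls or FAK-kd library. The calls separated FAK-WT from FAK-nls and from FAK-kd but not from FAK-/-, whose replicates differed. The peaks were 380, 336 and 280 bp long. Ranked by −log10 p within its library, the peak stood 10599th of 53703 in FAK-WT replicate 1, 23497th of 39036 in FAK-WT replicate 2 and 10446th of 43136 in FAK-/- replicate 1. The same 3 libraries kept the call when every library was held to its 24383 strongest peaks, and when peaks with a −log10 q below 3 were left out. The pattern was shared by 624 regions of the genome (0.899%). Bulk libraries cannot tell a site open in fewer cells from a site less open in each cell.

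The region around the inner Il33 start (chr19:29945685-29946927) was called in FAK-WT replicate 1, FAK-WT replicate 2, FAK-nls replicate 1 and FAK-kd replicate 2, with fold enrichments of 3.34, 3.40, 3.42 and 3.48. These were low peaks, ranked 44304th, 32903rd, 23172nd and 40051st in their libraries. Only that of FAK-WT replicate 1, 1079 bp long, covered the start at 29945790 itself, and the others began 157 bp (FAK-nls replicate 1), 829 bp (FAK-WT replicate 2) and 938 bp (FAK-kd replicate 2) beyond it. At an equal number of peaks per library the FAK-nls call alone was left, but the list of FAK-nls replicate 1 is the shortest and sets that number, so none of its calls could be lost. At a −log10 q of at least 3 no call was left. Its calls, in both FAK-WT and neither FAK-/- library, thus rested on weak peaks that overlapped each other only in part.

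**Figure D2:**
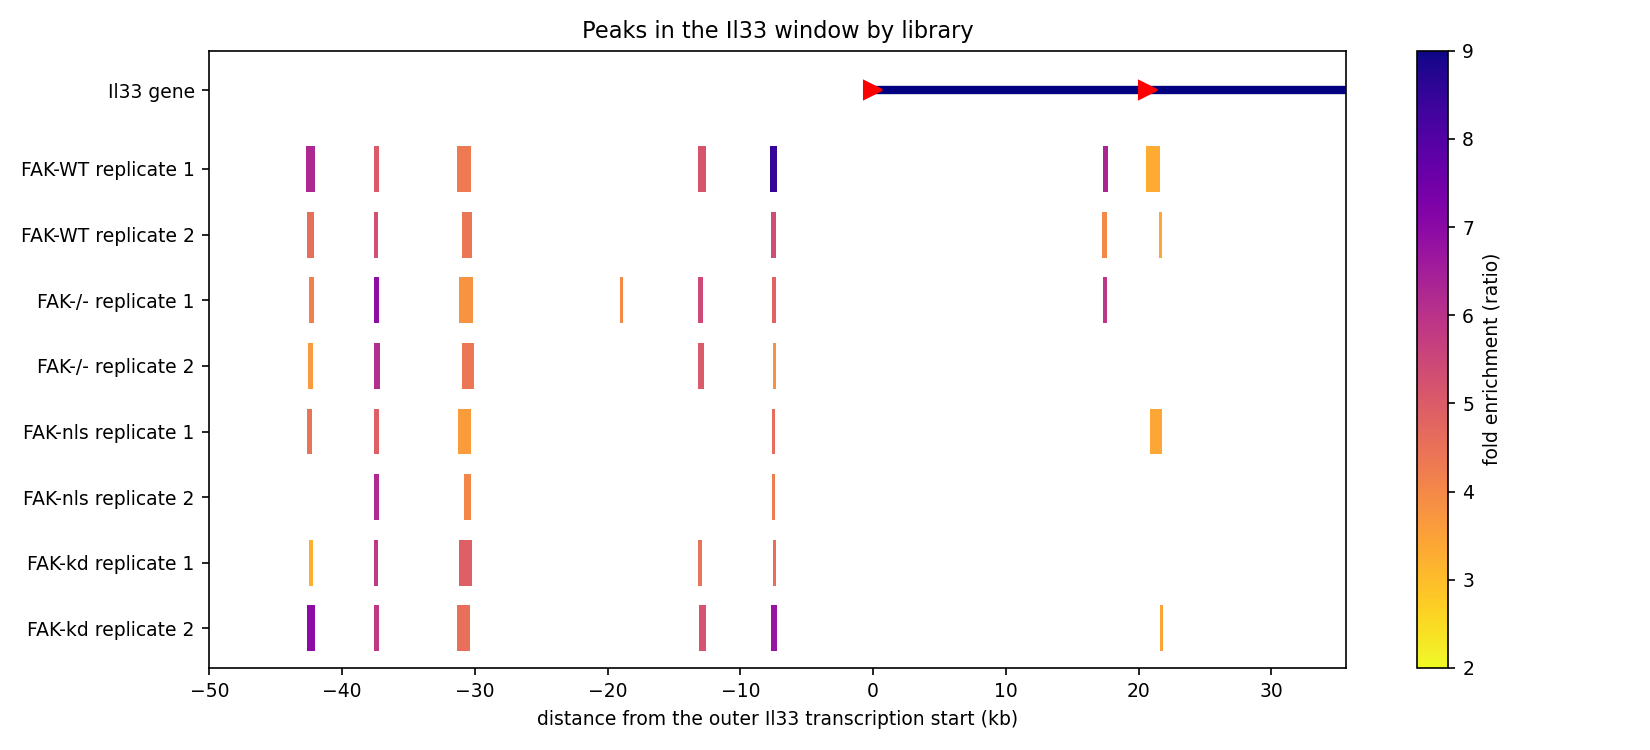
Peaks of each of the 8 libraries (rows) in the Il33 window, drawn to scale against the distance from the outer start in kb and coloured by fold enrichment (a ratio); the bar on top is the gene and the arrowheads are its outer and inner starts. The peak 17.5 kb inside the gene is seen in both FAK-WT libraries and FAK-/- replicate 1, and no peak lies at the outer start.

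The Il33 region 7.49 kb upstream (chr19:29917367-29917882), intergenic and with 2 AP-1 matches, had fold enrichments of 8.49 and 5.33 in FAK-WT, 4.81 and 3.81 in FAK-/-, 4.61 and 4.28 in FAK-nls, and 4.57 and 6.74 in FAK-kd. Both FAK-WT values lay above both FAK-/- and both FAK-nls values, and the FAK-kd values overlapped those of FAK-WT. The peaks were also longest in FAK-WT replicate 1 (494 bp) and FAK-kd replicate 2 (491 bp) and shortest in the FAK-nls libraries (200 bp in each, the shortest peak length in the lists). The mean for FAK-WT was 6.91 ± 2.23, that for FAK-/- 4.31 ± 0.708, that for FAK-nls 4.45 ± 0.234 and that for FAK-kd 5.65 ± 1.53 (SD, n = 2). On the log2 scale, after each library was centred on its median, FAK-WT was 0.54 higher than FAK-/- (95% interval 0.18 to 0.90, limma adjusted p = 0.456) and 0.42 higher than FAK-nls (0.06 to 0.78, limma adjusted p = 0.25). Neither difference passed the threshold of 0.05.

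The Il33 region 37.4 kb upstream (chr19:29887480-29887978), with its adjacent AP-1 matches, was ordered the other way. Its fold enrichment was 5.04 and 5.29 in FAK-WT, 6.91 and 6.12 in FAK-/-, 4.90 and 6.19 in FAK-nls, and 5.85 and 5.86 in FAK-kd. Before centring, FAK-WT lay below both FAK-/- and both FAK-kd values and within the range of FAK-nls. After centring, FAK-WT (−0.15 and 0.13 on the log2 scale) still lay below both FAK-/- values (0.47 and 0.39). It then overlapped FAK-kd (0.31 and 0.08), and FAK-WT replicate 1 fell below both FAK-nls values (0.12 and 0.40). The centred log2 difference of FAK-WT from FAK-/- was −0.44 (95% interval −0.77 to −0.12, limma adjusted p = 0.491), again short of the threshold. The region at 30.7 kb, with 2 AP-1 matches in its central 500 bp, ranged from 3.59 to 4.91 with no such order. The region at 12.9 kb (chr19:29911907-29912517) was called in FAK-WT replicate 1, both FAK-/- and both FAK-kd libraries, at 4.44 to 5.40, and in neither FAK-nls library.

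Il1a (chr2:129299610-129309972, minus strand) codes for IL-1 alpha, which keratinocytes hold preformed. Its window held 1 region, 21 kb upstream and intergenic (chr2:129330681-129331260), called in every library. The fold enrichment was 5.75 and 4.69 in FAK-WT, 5.44 and 4.08 in FAK-/-, 4.52 and 5.10 in FAK-nls, and 5.72 and 7.59 in FAK-kd. The difference of FAK-WT from FAK-kd was −0.37 on the log2 scale (95% interval −0.69 to −0.05, limma adjusted p = 0.746). No library had a peak at the Il1a promoter.

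Il1b (chr2:129364570-129371139, minus strand), the IL-1 beta gene that is mainly active in myeloid cells, also had 1 region, 37.5 kb upstream (chr2:129408402-129408800). It was called at 3.49 and 3.97 in FAK-WT, 3.82 in FAK-/- replicate 1 and 4.43 in FAK-kd replicate 2, and not in the other libraries. At an equal number of peaks per library, Il1b had no call in any of them. Like Il1a, it had no promoter call.

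Il18 (chr9:50554827-50581840, plus strand), which codes for a cytokine that skin epithelium makes as an inactive precursor, was called throughout. All 6 of its regions had peaks in all 8 libraries, as had the 1 region of Il1a, and at an equal number of peaks 47 of the 48 Il18 calls remained. The strongest lay in an intron 15.4 kb inside the gene (chr9:50569967-50570571), with fold enrichments of 9.59 and 7.70 in FAK-WT, 9.45 and 7.97 in FAK-/-, 7.04 and 6.52 in FAK-nls, and 6.49 and 9.75 in FAK-kd. The region over the Il18 start (chr9:50554543-50555383), which also overlaps Bco2, was at 7.77 and 6.20 in FAK-WT, 7.34 and 6.86 in FAK-/-, 5.03 and 5.73 in FAK-nls, and 6.35 and 7.71 in FAK-kd. FAK-nls was lowest at the start, without overlap with the other lines, and its difference from FAK-WT was 0.19 on the log2 scale (95% interval −0.09 to 0.47, limma adjusted p = 0.508). The Il18 region 25.7 kb inside the gene, also intronic (chr9:50580180-50580901), was at 7.44 and 5.81 in FAK-WT, 6.51 and 5.34 in FAK-/-, 3.49 and 5.47 in FAK-nls, and 6.57 and 9.64 in FAK-kd. FAK-nls lay below FAK-WT and FAK-kd and overlapped FAK-/-, and the difference of FAK-WT from FAK-nls was 0.41 on the log2 scale (95% interval 0.04 to 0.78, limma adjusted p = 0.271). The region 26.4 kb upstream belongs to the promoter of Pts, a neighbouring gene, and those 17.3 kb and 11.9 kb upstream lie in introns of Bco2.

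Of the receptors, Il1rl1 (chr1:40429570-40465415, plus strand) had 9 regions, the most of the 8 genes. The FAK-WT libraries called 8 and 6 of them, FAK-/- 8 and 7, FAK-nls 5 and 4, and FAK-kd 7 in each. Il1rl1 also held the best-ranked peak of the family, in an intron 15.5 kb inside the gene (chr1:40444599-40445489). This region ranked 359th and 116th in FAK-WT, 24th and 115th in FAK-/-, 1105th and 1247th in FAK-nls, and 83rd and 370th in FAK-kd. In FAK-nls replicate 1 an intronic Il18 region (chr9:50569967-50570571) ranked higher, at 827th. The fold enrichment of the Il1rl1 region was 7.62 and 8.59 in FAK-WT, 9.04 and 7.83 in FAK-/-, 5.99 and 6.43 in FAK-nls, and 8.34 and 8.39 in FAK-kd. Before centring, FAK-nls thus lay below all other libraries. After centring, FAK-nls (0.41 and 0.46 on the log2 scale) overlapped FAK-WT (0.45 and 0.83). The centred log2 difference of FAK-WT from FAK-nls was 0.20 (95% interval −0.09 to 0.50, limma adjusted p = 0.501).

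The Il1rl1 region 28.5 kb upstream (chr1:40400629-40401548), printed above, differed most from FAK-nls. It had fold enrichments of 7.60 and 6.52 in FAK-WT, 8.30 and 7.20 in FAK-/-, 3.75 and 4.49 in FAK-nls, and 6.29 and 7.64 in FAK-kd. The ranks were 1344 and 2260 in FAK-WT, 225 and 571 in FAK-/-, 19942 and 13857 in FAK-nls, and 4099 and 2822 in FAK-kd. FAK-nls was lowest by both measures, and the other 3 lines overlapped in fold enrichment. Ranks in lists of unequal length give no order among those lines. Its peaks were also the shortest, 575 and 552 bp against 646 to 920 bp elsewhere. FAK-WT exceeded FAK-nls by 0.60 on the log2 scale, a ratio of 1.51 (95% interval 1.24 to 1.85), with an unadjusted p of 0.00035 and a limma adjusted p of 0.0903. When the rank by −log10 p was fitted with limma in place of fold enrichment, this region passed the threshold against FAK-nls (adjusted p = 0.0333), as did 63 of the 17917 regions (0.352%) where fold enrichment gave 0. It was the only member region to do so, and over the other settings the lowest adjusted p of any member region against FAK-nls ran from 0.0745 to 0.456. The neighbouring region 36.2 kb upstream, which holds a CRE match, had 3.66 and 4.18 in FAK-nls against 4.63 to 7.42 in the other libraries. The Il1rl1 region 12.4 kb upstream (chr1:40416831-40417495), the last of the 4 called in every library, did not have FAK-nls lowest without overlap in fold enrichment. It was at 5.44 and 3.74 in FAK-WT, 5.63 and 4.47 in FAK-/-, 4.60 and 3.61 in FAK-nls, and 4.71 and 4.94 in FAK-kd, and FAK-WT differed from FAK-nls by −0.03 on the centred log2 scale (95% interval −0.39 to 0.32, limma adjusted p = 0.947).

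The region at the inner Il1rl1 start (chr1:40435920-40436647) was called in all libraries but FAK-nls replicate 2, at 4.17 to 6.15. Of its 7 peaks, only that of FAK-WT replicate 2 covered the start at 40436589, and the others ended 38 to 273 bp short of it. No region was called in FAK-nls replicate 2 between 12.4 kb upstream and 15.5 kb inside the gene.

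**Figure D3:**
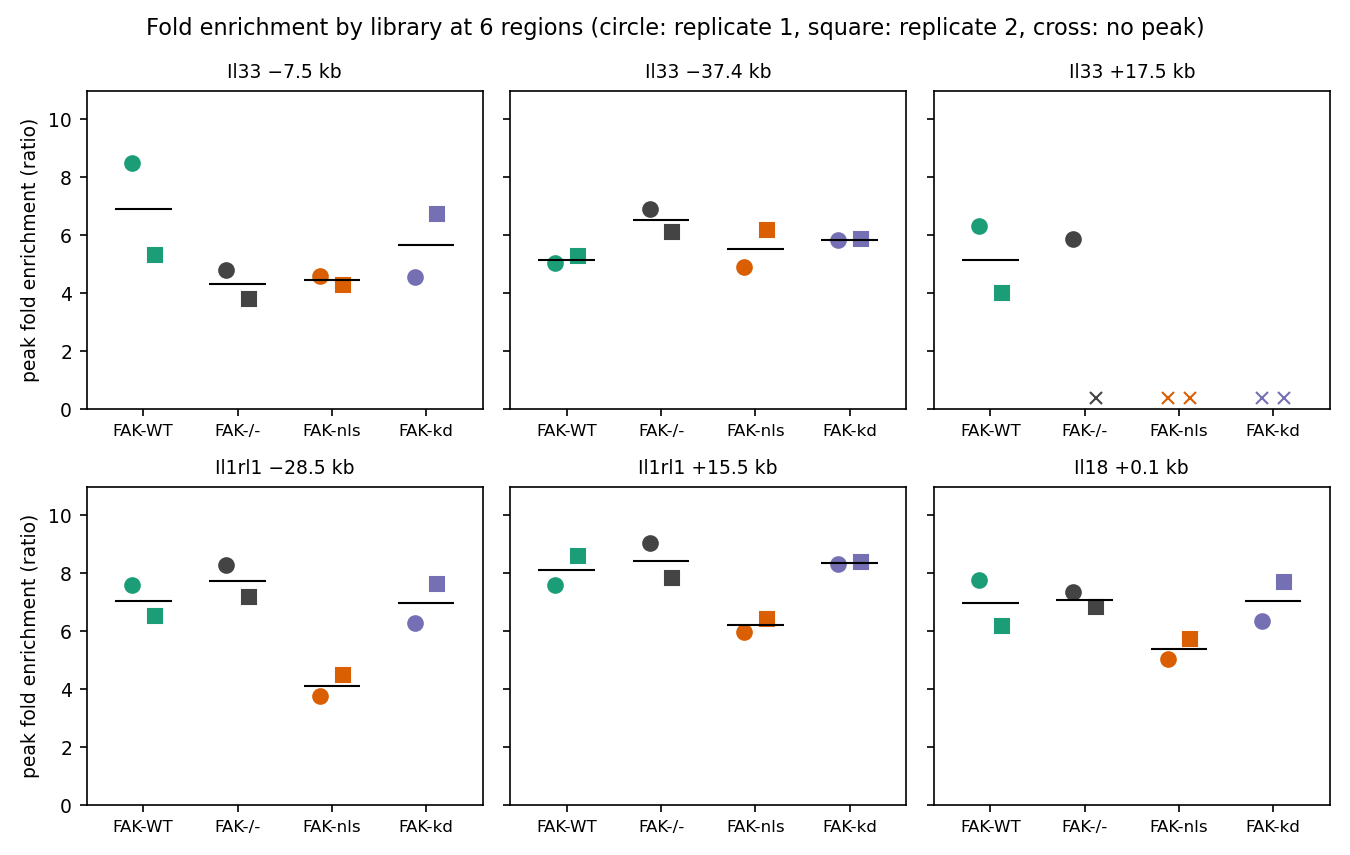
Fold enrichment (a ratio) at 6 regions of Il33, Il1rl1 and Il18 for the 2 libraries of each line; the horizontal line is the mean where both libraries had a peak, and a cross marks a library with no peak, which has no value. At the Il1rl1 region 28.5 kb upstream the FAK-nls libraries (3.75 and 4.49) lie below all others, and the Il33 region 17.5 kb inside the gene has values in 3 libraries.

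Il1r1 (chr1:40225080-40317257, plus strand), the receptor for IL-1 alpha and IL-1 beta, had 8 regions with peaks at both of its main starts. The outer start (chr1:40224673-40225336) was called in all libraries but FAK-nls replicate 1, at 4.24 to 6.35, and the inner one (chr1:40266178-40267297) in all but FAK-nls replicate 2, at 3.83 to 5.87. Every peak in these 7 libraries covered the respective start. The intronic region 50.5 kb inside the gene (chr1:40275129-40275991), with 2 AP-1 matches, was nearly level over the lines, with 7.25 and 7.47 in FAK-WT, 6.84 and 6.43 in FAK-/-, 6.41 and 6.12 in FAK-nls, and 6.77 and 7.66 in FAK-kd. The intronic region 10.7 kb inside the gene (chr1:40235361-40236292), which was also called in every library and holds none of the 5 motifs, had 6.31 and 3.77 in FAK-WT, 4.71 and 4.63 in FAK-/-, 5.32 and 4.66 in FAK-nls, and 4.78 and 5.93 in FAK-kd. Before centring, the FAK-WT replicates of this region spanned the values of all other libraries. After centring, FAK-nls replicate 1 (0.24 on the log2 scale) lay above both FAK-WT values (0.17 and −0.36). A weaker intronic region (chr1:40233411-40234045), which holds none of the 5 motifs in its central 500 bp, was called at 2.88 and 3.09 in FAK-WT and 3.17 and 3.08 in FAK-/-, and in no FAK-nls or FAK-kd library. That pattern was shared by 430 regions (0.620%), and the call was lost in every library at an equal number of peaks.

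Il1rap (chr16:26581704-26730117, plus strand), the accessory chain of both receptors, had 7 regions. Its start (chr16:26581260-26582352) was called in every library, at 5.72 and 5.77 in FAK-WT, 5.00 and 4.99 in FAK-/-, 4.91 and 4.59 in FAK-nls, and 5.81 and 5.60 in FAK-kd. Before centring, both FAK-WT and both FAK-kd values lay above those of FAK-/- and FAK-nls, but not after it. The centred log2 difference of FAK-WT was 0.09 from FAK-/- (95% interval −0.23 to 0.41, limma adjusted p = 0.948) and 0.10 from FAK-nls (−0.23 to 0.42, limma adjusted p = 0.801). A pair of intronic regions beside the inner start was called in all libraries but FAK-nls replicate 1. That 0.847 kb before the inner start (chr16:26623002-26623616) had 4.86 and 4.74 in FAK-WT, 4.65 and 4.84 in FAK-/-, 5.17 in FAK-nls replicate 2, and 4.85 and 6.12 in FAK-kd. That 2.14 kb beyond it (chr16:26625982-26626616), with 2 AP-1 matches, had 5.88 and 4.37 in FAK-WT, 4.66 and 6.30 in FAK-/-, 3.84 in FAK-nls replicate 2, and 4.02 and 3.68 in FAK-kd. The FAK-kd values were below both FAK-WT and both FAK-/- values at the second of these only. Near the 3′ end, a region in a UTR exon that overlaps the antisense transcript Gm20319 (chr16:26724568-26725092) was called at 4.07 and 3.23 in FAK-WT and at 4.76 in FAK-kd replicate 2 only. Of the other Il1rap regions, 3 were called in a single library each.

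Il1rn (chr2:24336853-24351494, plus strand), the receptor antagonist that keratinocytes are known to make, had 2 regions called 3 times in all. The region 0.177 kb before the gene start (chr2:24336568-24336785) was called in FAK-/- replicate 1 at 4.12, 68 bp short of the start. That inside the gene was called in FAK-WT replicate 1 at 4.78 and in FAK-kd replicate 2 at 3.30. None of these calls was left at an equal number of peaks.

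The comparison of FAK-WT with each other line asks which regions go with FAK, with its nuclear localisation and with its kinase activity. A region was counted as WT-only when both FAK-WT libraries and neither library of the other line had a peak, and as reverse in the opposite case. Against FAK-/-, 2 of 41 member regions were WT-only, the inner Il33 start and the 3′ region of Il1rap, where 5.41% of all regions were. Against FAK-nls, 4 of 37 were, the intronic Il33 region, the weak Il1r1 intronic region, the Il1rap 3′ region and the Il1b region, where 18.4% of all regions were. Against FAK-kd, 2 of 40 were, the intronic Il33 region and the weak Il1r1 region, where 4.76% of all regions were. The shares of the members (4.88%, 10.8% and 5.00%) were thus near or below those of the genome. No member region was reverse in any of the comparisons, where 1.31% (FAK-/-), 0.297% (FAK-nls) and 0.912% (FAK-kd) of all regions were. These counts rest on the calls of 2 libraries a line and carry no test.

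Held to an equal number of peaks per library, WT-only member regions came to 0 against FAK-/-, 1 against FAK-nls and 1 against FAK-kd, and the intronic Il33 region was the one left in both. These were 0 of 26, 1 of 27 and 1 of 28 member regions, and 4.11%, 5.66% and 3.69% of all regions were then WT-only, so the member counts were near or below the genome here too. Reverse regions were then 3.95%, 4.87% and 3.15% of all regions, close to the WT-only shares, and 0 of the member regions, so that most of the excess of WT-only over reverse regions in the full lists was not seen with lists of equal length. Leaving out FAK-/- replicate 1 made the intronic Il33 region WT-only against FAK-/- as well, among 4 member regions, at a share of 12.2% over the genome. The plot of called regions by gene shows both ways of counting.

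**Figure D4:**
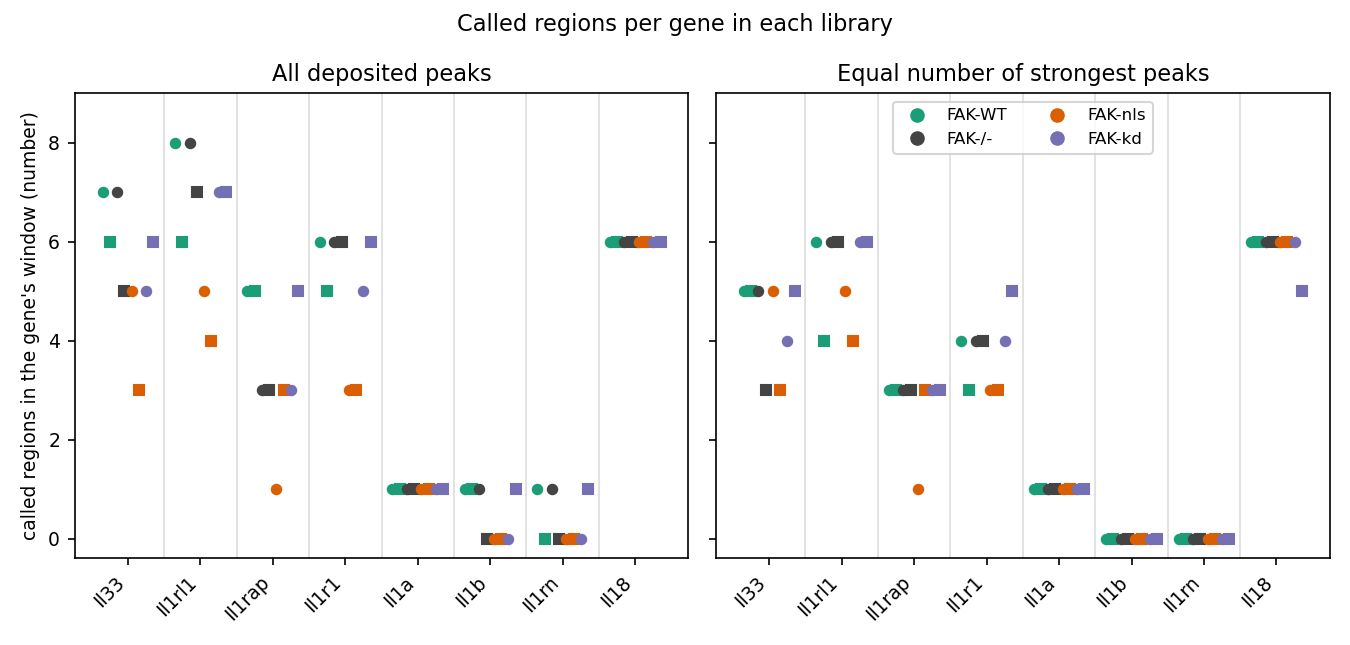
Number of called regions in the window of each of the 8 genes, for each library (colour: line; circle: replicate 1; square: replicate 2), with all deposited peaks on the left and the 24383 strongest peaks of each library on the right. Il33 ranges from 3 to 7 on the left and from 3 to 5 on the right, and Il1b and Il1rn have no call on the right.

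Peak height was compared at the 17 member regions called in all 8 libraries, which leaves out the intronic Il33 region. Fold enrichment was tested with limma over all 17917 such regions with Benjamini-Hochberg adjustment, and 0 of the 17 member regions passed 0.05 in any comparison. Of all regions, 0.0167% passed as higher and 0.0112% as lower in FAK-WT than in FAK-/-, while the shares were 0.0% and 0.0% for FAK-nls and 0.0167% and 0.0% for FAK-kd. At an unadjusted p under 0.05 there were 2, 4 and 2 member regions among 1376, 2852 and 1114 regions of the genome (7.68%, 15.9% and 6.22%). With a call needed only in the 4 libraries compared, 24, 17 and 23 member regions entered, again without the intronic Il33 region, and 0 passed, where 0.0107%, 0.0% and 0.0111% of all regions did. No other tool was run on these values. With normal scores of the rank as input, limma gave 0, 1 and 0 member regions, and 0, 63 and 2 of all 17917 regions (0.0%, 0.352% and 0.0112%).

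Against FAK-nls, 13 of the 17 member regions were higher in FAK-WT and 4 lower, with a median log2 difference of 0.18, where over all regions 44.7% were higher and the median was −0.03. The 17 regions are not spread evenly over the genes, since Il18 gave 6, all of them higher, and Il1rl1 gave 4. Regions of the same gene are not separate observations of the family. Against FAK-/- the members were split 8 to 9 (median −0.01, all regions −0.01) and against FAK-kd 5 to 12 (median −0.04, all regions −0.01). The widest bounds of the 95% intervals ran from −0.77 to 0.90 against FAK-/-, from −0.60 to 0.89 against FAK-nls and from −0.69 to 0.78 against FAK-kd, and the intervals thus left room for differences of up to these sizes at single regions. Regions of Il33, Il1rl1 and Il18 made up the 4 intervals that did not hold 0 against FAK-nls. The 3 comparisons share the FAK-WT libraries.

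**Figure D5:**
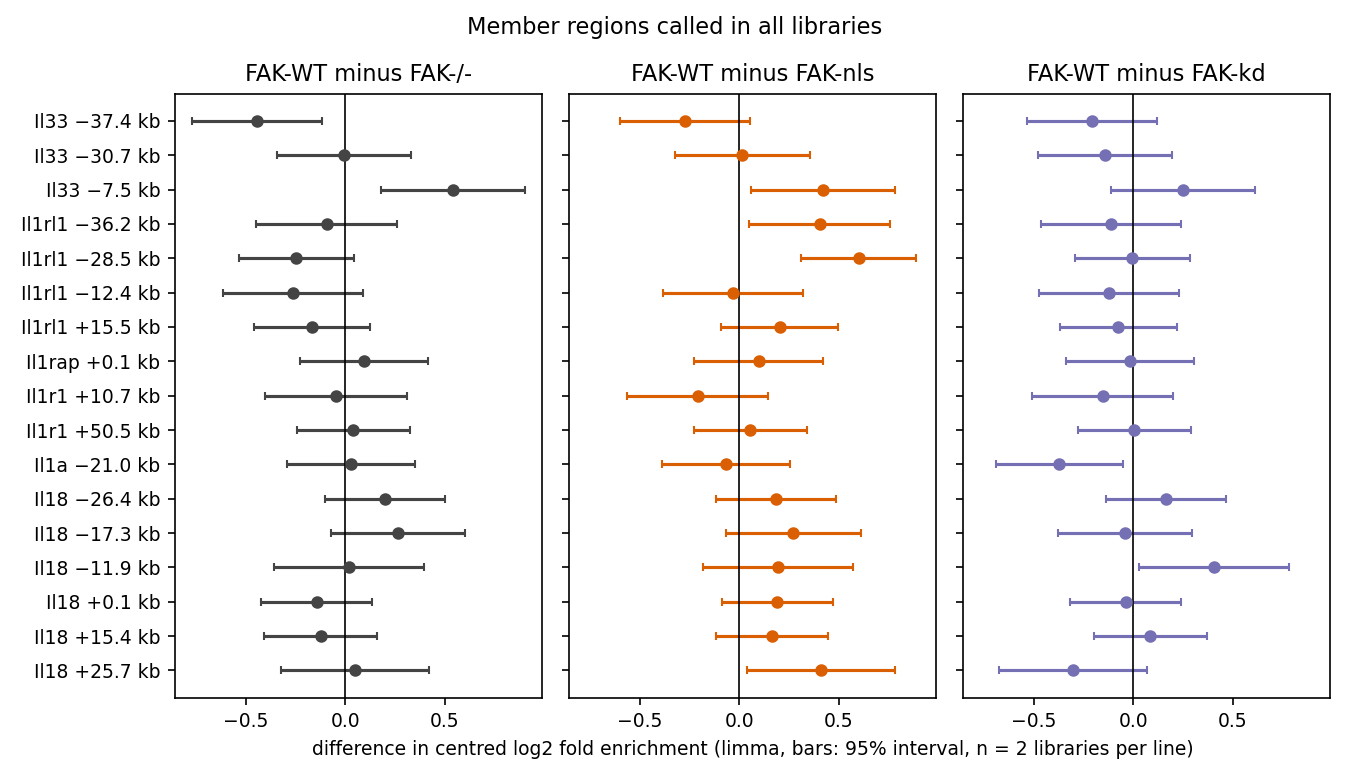
Difference in centred log2 fold enrichment between FAK-WT and each other line at the 17 member regions called in all libraries, with 95% intervals from limma (n = 2 libraries per line). Against FAK-nls 13 of 17 points lie right of 0, and the point farthest right is the Il1rl1 region 28.5 kb upstream (0.60).

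Motif letters were searched within 250 bp of the centre of every region. AP-1 matches, the sites of Jun and Fos proteins, lay in 20 of the 42 member regions (47.6%) against 35.3% of all regions, and in 6 of the 8 Il33 regions. CRE matches lay in 2 member regions (4.76%), the intronic Il33 region and the Il1rl1 region 36.2 kb upstream, against 1.07% of all regions. ETS matches (NGGAAGT with A or C at N) lay in 8 member regions (19.0% against 17%), none of them of Il33, NF-kB matches in 4 (9.52% against 7.32%) and C/EBP matches in 9 (21.4% against 18.8%). Over whole regions, which differ in length, AP-1 and CRE stayed above the share of all regions (47.6% against 41.7% and 4.76% against 1.48%), while ETS (19.0% against 22.2%), NF-kB (9.52% against 10.5%) and C/EBP (19.0% against 23.9%) fell below it. Of the 3 Il33 regions called in every library and named above, all held 2 AP-1 matches, as did the region at 12.9 kb, so that AP-1 letters did not set apart the intronic region. In the 250 bases before a start, C/EBP letters as in the inner Il33 promoter were found in 9.56% of the 32851 promoters of the RefSeq table and AP-1 letters in 4.46%. A match is a description of the letters only, and a missing match says nothing of whether a factor binds.

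The other genes of the pathway, 33 in number, had 134 regions by the same rule, 5 of them shared with the members. WT-only regions came to 4 of 123 against FAK-/- (3.25%), 20 of 112 against FAK-nls (17.9%) and 4 of 125 against FAK-kd (3.20%), where 5.41%, 18.4% and 4.76% of all regions were. Reverse regions came to 4, 2 and 7 (3.25%, 1.79% and 5.60%), where 1.31%, 0.297% and 0.912% of all regions were. In the limma fit 0 of their 50 regions called in all libraries passed in any comparison, and 4, 9 and 4 of the 50 had an unadjusted p under 0.05, where 7.68%, 15.9% and 6.22% of all regions had. Of the regions WT-only against FAK-nls, some lay at promoters. That of Rela (chr19:5637033-5638114), an NF-kB subunit, had 4.02 and 4.01 in FAK-WT, 3.66 and 3.24 in FAK-/-, and 3.52 and 4.40 in FAK-kd. Casp1, the protease that matures IL-1 beta and IL-18, had 4.93 and 4.05 in FAK-WT, 3.25 in FAK-/- replicate 1 and 3.64 in FAK-kd replicate 2. Gsdmd, the pore protein through which IL-1 beta leaves cells, had 3.92 and 3.25 in FAK-WT and peaks in both FAK-/- and both FAK-kd libraries. Ikbkg, the regulatory subunit of the IkB kinase, had 2 such regions, at promoters 31.8 kb and 36.0 kb inside the gene. Ikbkg has 3 promoter regions, and all 8 libraries had a call at some promoter region of this gene. Il18rap, a chain of the IL-18 receptor, had 1 such region, at a promoter 27.4 kb inside the gene. It has 2 promoter regions, and 7 libraries had a call at some promoter region of Il18rap. At an alternative promoter of Nfkb1, the gene of another NF-kB subunit, a region was reverse against FAK-kd (2.89 and 3.95 in FAK-kd). A region 31.3 kb upstream of Tollip, an inhibitor of IL-1 receptor signalling, had peaks in all 6 libraries outside FAK-WT, at 3.13 to 4.56. A promoter was called in all 8 libraries for 16 of the 33 genes, where 41.9% of the 21911 protein-coding genes had one. The 5 windows that held no region, named after their values were seen, were those of the further family ligands Il36a, Il36b, Il36g, Il36rn and Il1f10, and 17.8% of all protein-coding windows held none.

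Genes most like Il33 were sought by Pearson correlation of the number of called regions per 10000 regions of the library, over 8 libraries and among the 2977 protein-coding genes with at least 7 called regions in some library, as Il33 had. Park7 and Tnfrsf9, neighbours that share regions, came first (r = 0.933 for each), followed by Zfp710 (0.900), Pik3cd (0.893) and Fam117a (0.892). Such counts are small whole numbers, from 2 to 8 here, and libraries share the differences in peak number.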

How the data were processed

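ATAC-seq libraries of 4 SCC cell lines, 2 per line, were analysed from the authors' peak lists. Per the study's methods, reads were aligned to mm10 with the bcbio pipeline and broad peaks were called per library with MACS2 (version 2.1.1 in the submitters' notes, q 0.05, shift −100, extension 200). The deposited columns are the peak pileup (signal, or coverage), −log10 of the p-value and the q-value, and fold enrichment over background (a ratio). The lowest −log10 q was 1.00, so the lists also hold peaks weaker than the stated q. The authors' aligned reads and read counts were not used here, and the authors' differential test on reads could not be repeated. Peaks of the assembled chromosomes that shared at least 1 bp were merged across libraries, and a library's value in a region is that of its highest peak. Genes, starts and exons came from GENCODE vM21. A promoter ran from 500 bp before to 2000 bp after a start.

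WT-only and reverse regions were counted from calls among the regions called in at least 1 of the 4 libraries compared. For regions called in all 8 libraries, log2 fold enrichment was centred on each library's median and fitted with limma 3.58.1 in R 4.3.3 (empirical Bayes with trend, all lines in 1 fit, Benjamini-Hochberg adjustment over all 17917 regions). The fit was tested on simulated data. Other steps used Python 3.11.15 with pandas 2.3.3, numpy 2.4.6 and pysam 0.24.0. The alternatives were an equal number of strongest peaks, a minimum −log10 q of 3, 50% coverage of a region, peaks set to 500 bp, windows of 10 and 100 kb, other scalings, a replicate block, and leaving out each library. The members, the motifs and the pathway and marker lists were chosen with earlier results of these data known. Named regions were all at a member's own start, all WT-only or reverse, all called by limma, and for each gene the 3 called in most libraries (ties by mean rank).

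The libraries are distinct: at most 0.0361% of the peaks of a pair had identical ends. GENCODE lists the Il36 genes under their older symbols, which were matched through RefSeq synonyms. One marker gene of the leukocyte list is not reported here.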

Additional observations from a re-analysis of the deposited data

How the results depend on the processing

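Against FAK-/-, WT-only member regions fell from 2 to 0 with an equal number of peaks, with a −log10 q of at least 3 and with 50% coverage, where 4.11%, 6.11% and 6.96% of all regions were WT-only. Against FAK-nls they went from 4 to 1 with an equal number of peaks (5.66% of all regions). They went to 7 with a −log10 q of at least 3 (7 of 28, with 21.9% of all regions), with 50% coverage (7 of 35, with 22.3%) and with 100 kb upstream (7 of 49, with 18.4%). Against FAK-kd they went from 2 to 1 with an equal number of peaks and with a −log10 q of at least 3 (3.69% and 4.94% of all regions). Reverse member regions against FAK-kd went from 0 to 1 of 53 with 100 kb upstream (0.912% of all regions). The cause of these changes was not tested.

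Leaving out each library in turn gave 2 to 6 WT-only member regions against FAK-/-, 6 to 11 against FAK-nls and 2 to 5 against FAK-kd, while the shares of all regions ran from 7.02% to 23.4%, from 23.7% to 47.2% and from 6.08% to 20.6%. Reverse member regions came to 1 to 3, 0 to 0 and 0 to 2, with 1.63% to 7.92%, 0.358% to 1.79% and 1.19% to 9.08% of all regions. Without FAK-WT replicate 2 the WT-only counts were 6 of 40, 11 of 35 and 4 of 39 member regions, against 23.4%, 47.2% and 20.6% of all regions. They were 4 of 38 against FAK-/- without FAK-/- replicate 1 (12.2% of all regions), 8 and 7 of 37 against FAK-nls without FAK-nls replicate 1 and 2 (23.7% and 24.6%), and 5 of 38 against FAK-kd without FAK-kd replicate 2 (14.1%).

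Over all regions, limma made 5, 0 and 3 calls against FAK-/-, FAK-nls and FAK-kd. These became 0, 63 and 2 with normal scores of the rank, where 1 of the 17 member regions was called against FAK-nls, and 0, 0 and 0 without centring, which moved the median log2 difference of all regions to 0.10, 0.15 and 0.01. With quantile normalization there were 1, 0 and 2 calls, and 3, 0 and 3 when a call was needed only in the 4 libraries compared. Leaving out each library gave 0 to 7, 0 to 1 and 0 to 3 calls, and 0 to 0 among member regions. With a replicate block there were 1, 0 and 3 calls and 0 among member regions. Whether the replicate numbers pair the libraries is not stated. The correlation of same-numbered deviations ran from −0.228 to 0.083 over the pairs of lines, which cannot decide it. With the FAK-kd numbers crossed, an alternative chosen after the data were seen, the block gave 5, 0 and 3 calls.

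Of the results that answer a comparison, 42 alternatives moved by more than 1.5 times and 108 did not, but 78 of the 108 were counts of 0 that stayed 0 and say nothing of stability. With 2 libraries a line, peak lists of unequal length and no reads, a missing peak is no measure of closed chromatin. Of the 42 member regions, 25 had no test of height in the fit over all lines, and when a call was needed only in the 4 libraries compared, 24, 17 and 23 regions could be tested.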
